A study of Mus musculus with 2 samples.

Results

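The prostaglandin genes described here are 8 genes: the cyclooxygenases Ptgs1 and Ptgs2, the terminal synthases Ptges, Ptgis and Hpgds, and the receptors Ptger2, Ptger4 and Ptgir. They were taken by symbol from the 32285 genes of the deposited tables, and all 8 were found. Tumour tissue from C57BL/6 mice was profiled by droplet 3′ single-cell RNA sequencing. One library has the genotype MC38-RSPO3-OE, that is MC38, a colon carcinoma line of the mouse, with overexpressed RSPO3, a secreted enhancer of Wnt signalling. The other has the genotype MC38-Ctrl. The labels call both tissues xenografts, and the tissue was digested to single cells on ice. How many mice were used, their age, the place and duration of tumour growth and the promoter driving RSPO3 are details the labels do not state. With 1 library per group there is no replicate check, so no test was made. Intervals are 95% and cover counting error only: exact Poisson for levels, exact Clopper-Pearson for shares of cells, and exact binomial for ratios.

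Prostaglandins are lipid signals made from arachidonic acid that phospholipases release from membranes. The cyclooxygenases Ptgs1, usually constitutive, and Ptgs2, inducible, convert it to the intermediate PGH2. Terminal synthases then make PGE2 (Ptges), prostacyclin (Ptgis) or PGD2 (Hpgds), and PGE2 acts through Ptger2 and Ptger4, receptors that raise cAMP, as does the prostacyclin receptor Ptgir. In tumours this pathway is known for its effects on myeloid and T cells.

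The upstream sequences of the 3 synthesis genes with the most UMIs in tumour cells are shown because Ptgs2 and Ptgs1 differed between the libraries there and Ptges hardly did. All come from RefSeq on GRCm38.p6, which held a promoter entry for 7 of the 8 genes (not for Ptgis), and each run is the 250 bases before the gene's start, read 5′ to 3′ on the gene's strand. Capitals mark matches on either strand to 5 motifs: the palindrome bound by C/EBP factors (TTGCGCAA), the core of the cAMP response element (ACGTCA), the E-box CACGTG, the GC box GGGCGG and the TATA box TATAAA.
Ptgs2, chr1:150099781-150100030, plus strand: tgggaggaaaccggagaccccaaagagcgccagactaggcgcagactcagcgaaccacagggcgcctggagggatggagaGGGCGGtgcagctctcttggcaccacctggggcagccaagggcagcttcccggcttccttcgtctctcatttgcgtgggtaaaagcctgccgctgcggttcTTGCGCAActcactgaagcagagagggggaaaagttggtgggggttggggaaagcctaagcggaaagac
Ptgs2 just past its start, chr1:150100033-150100058, plus strand: agtcaccactACGTCACGTGgagtcc
Ptgs1, chr2:36230176-36230425, plus strand: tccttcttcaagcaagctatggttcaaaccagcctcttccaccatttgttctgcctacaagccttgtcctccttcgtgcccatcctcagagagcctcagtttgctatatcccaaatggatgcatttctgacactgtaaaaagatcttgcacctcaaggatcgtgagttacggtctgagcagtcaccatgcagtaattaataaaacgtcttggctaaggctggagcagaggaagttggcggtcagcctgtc
Ptges, chr2:30903298-30903547, minus strand: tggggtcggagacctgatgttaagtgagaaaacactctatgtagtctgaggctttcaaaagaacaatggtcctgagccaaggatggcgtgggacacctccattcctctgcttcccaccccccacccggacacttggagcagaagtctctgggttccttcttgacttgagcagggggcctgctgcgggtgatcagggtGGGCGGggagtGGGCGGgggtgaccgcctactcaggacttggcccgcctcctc

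The Ptgs2 window held the C/EBP palindrome with its first base at -69 from the start, and 0.183% of the 32851 RefSeq promoter windows of 300 bases (250 before and 50 after the start) held that motif. Its cAMP response core began at 13, a motif present in 7.51% of windows, and overlapped the E-box at 17, present in 7.15%. It also held a GC box at -170, present in 35.7% of windows. Ptgs1 held none of the 5 motifs in its window. Ptges held GC boxes at -53 and -42 and none of the other motifs. None of the 7 windows held the TATA letters, which 13.6% of all windows hold. These matches describe letters in a window and are not evidence of binding.

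After filtering, 6991 RSPO3-OE and 6896 Ctrl cells remained, with median depths of 18911 and 16627 UMIs (counted RNA molecules) per cell, and 7 kept barcodes occurred in both libraries. Classes were set by marker UMIs. Tumour cells had no Ptprc and at least 1 Hmga2 UMI (4198 RSPO3-OE and 4319 Ctrl cells), macrophages at least 20 UMIs of C1qa, C1qb and C1qc (1179 and 1163), neutrophils at least 20 of S100a8 and S100a9 (81 and 14), and T cells at least 2 of Cd3d, Cd3e and Cd3g (408 and 202). Cells that met several rules were left out. Markers outside the rules followed the classes, with Csf1r at 513 and 514 CPM (UMIs of the gene per 1e+06 UMIs of its class) in macrophages and Trbc2 at 1113 and 1065 CPM in T cells. In tumour cells Krt8 stood at 539.8 and 87.0 CPM, but the epithelial marker Epcam was at 0 in both libraries and Krt19 had 1 UMI, so the class rests mainly on Hmga2. Markers of other cell types differed between the libraries in this class. The 3 endothelial genes summed to 15.6 and 2.47 CPM, all 3 higher in RSPO3-OE (Cdh5 at 8.19 and 0.546 CPM). The 4 fibroblast genes summed to 3533 and 2344 CPM, but went different ways. At 1.5-fold 1 was higher (Col3a1 at 1415 and 615 CPM) and 1 lower (Pdgfra at 17.7 and 28.7 CPM). Dcn was at 2086 and 1685 CPM and Lum at 14.8 and 15.6 CPM. The part of these markers in the tumour cell results was not tested. Rspo3 was at 106.9 CPM in RSPO3-OE tumour cells and had no UMI in Ctrl tumour cells.

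Each gene had its own place among the classes. Ptges was a tumour cell gene, at 118.9 (117 to 121) and 112 (110 to 114) CPM in RSPO3-OE and Ctrl. Tumour cells held 91.1% and 89.4% of all its UMIs in kept cells. Hpgds was a macrophage gene, and macrophages held 93.6% and 97.0% of its UMIs. Ptger4 was also highest in macrophages, and Ptger2 in T cells. Ptgs2 was present in tumour cells, macrophages and neutrophils and had its highest CPM in neutrophils of both libraries, and Ptgs1 was shared by macrophages and tumour cells. Ptgis and Ptgir stayed under 1 CPM in tumour cells and in macrophages. Where values come in pairs, RSPO3-OE is given first and Ctrl second. Levels are compared within a gene, since 3′ UMI counts are not scaled by length.

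**Figure D1:**
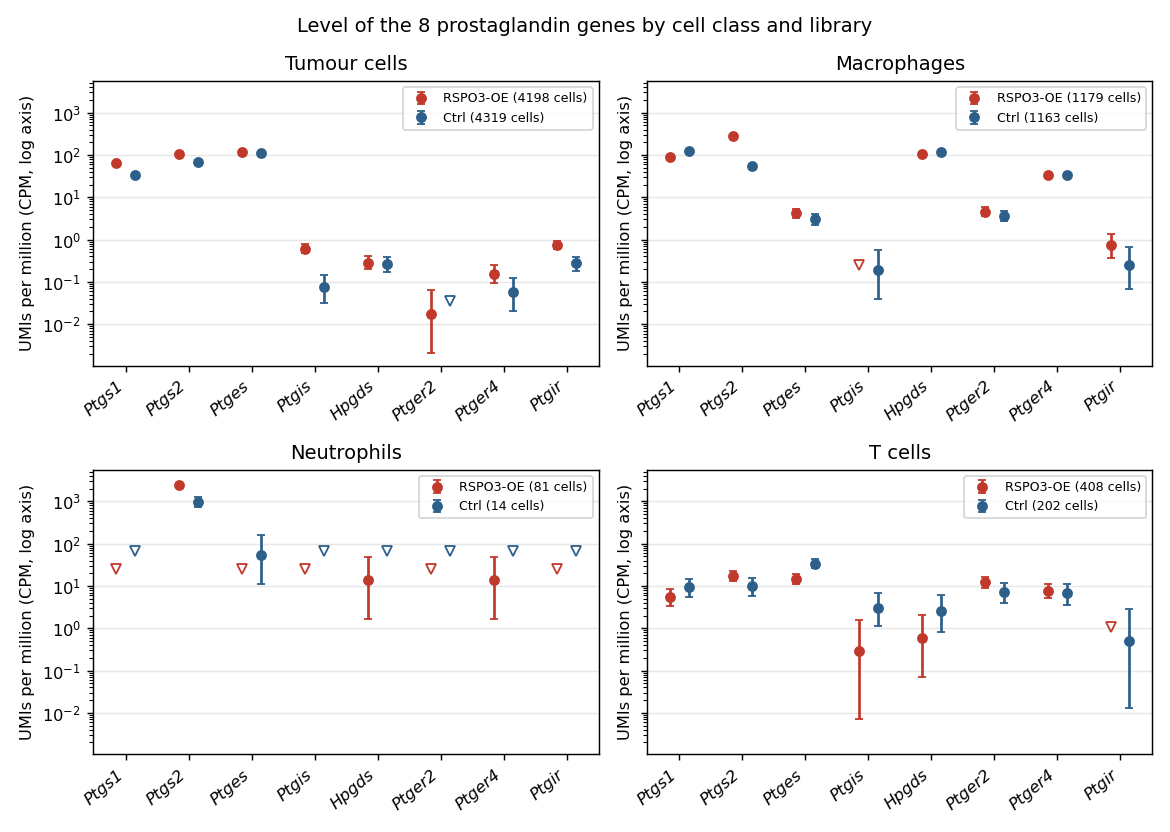
Level of each of the 8 genes in CPM (log axis) in 4 cell classes, with RSPO3-OE in red and Ctrl in blue; bars are 95% Poisson intervals and open triangles give the upper limit where no UMI was found. Ptgs2 in macrophages stands at 285.2 against 56.1 CPM, while Ptger4 and Hpgds lie close together in the libraries.

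In tumour cells 7 of the 8 genes had the minimum of 10 UMIs over both libraries, and 5 of them (Ptgs1, Ptgs2, Ptgis, Ptger4 and Ptgir) were at least 1.5-fold higher in RSPO3-OE. Over all 15191 genes measured there, 13.3% were that much higher, and 16.9% were that much lower, which held for none of the 7. The median log2 ratio was 0.93 over these genes and -0.10 over all genes measured. Of the 5, Ptgis, Ptger4 and Ptgir had under 1 CPM. In macrophages 7 genes were measured and 2 (Ptgs2 and Ptgir) were higher, against 10.9% of 12661 genes, and none lower, against 8.64%; the medians were 0.36 and 0.03. In T cells 5 were measured, with Ptgs2 and Ptger2 higher, against 10.4% of 11009 genes, and Ptgs1 and Ptges lower, against 17.1%. The T cell intervals of Ptger2 and Ptgs1 included no difference. In neutrophils only Ptgs2 was measured, and it was higher, where 34.9% of 2088 genes were higher and 32.9% lower.

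**Figure D2:**
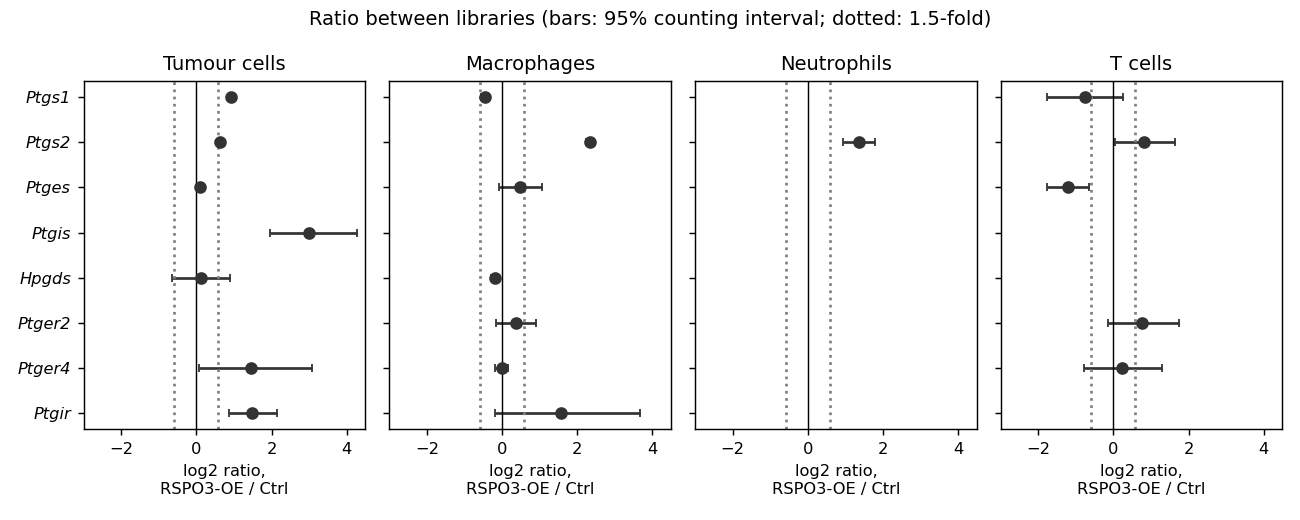
Log2 ratio of RSPO3-OE over Ctrl for each gene with at least 10 UMIs in a class, with 95% counting intervals; dotted lines mark 1.5-fold. Ptgs2 lies to the right of the 1.5-fold line in macrophages (2.35), and Ptgs1 lies on opposite sides of 0 in tumour cells (0.93) and macrophages (-0.46).

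Ptgs2, the inducible cyclooxygenase, showed the widest gap among the well-measured genes in macrophages. Its level there was 285.2 CPM in RSPO3-OE (277 to 294, from 4159 UMIs), while Ctrl had 56.1 CPM (52.4 to 59.9, from 880 UMIs). The ratio was 5.09-fold (4.73 to 5.48), a log2 ratio of 2.35. More macrophages carried it and each carried more: 58.8% (55.9 to 61.6) of RSPO3-OE macrophages had a Ptgs2 UMI against 23.1% (20.7 to 25.7) in Ctrl. Macrophages with 10 or more UMIs made up 11.6% and 1.20%. Without the 147 and 65 macrophages that carried an Hmga2 or Krt8 UMI, the levels were 276.7 and 57.7 CPM. With every cell thinned to 2000 UMIs, which left out 10 and 9 shallower macrophages, the shares were 30.8% and 7.97%. The share in T cells, which gives a sense of background, was 3.43% and 4.46% at median depths of 6802.5 and 7073 UMIs, against 11856 and 12628 in macrophages.

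**Figure D3:**
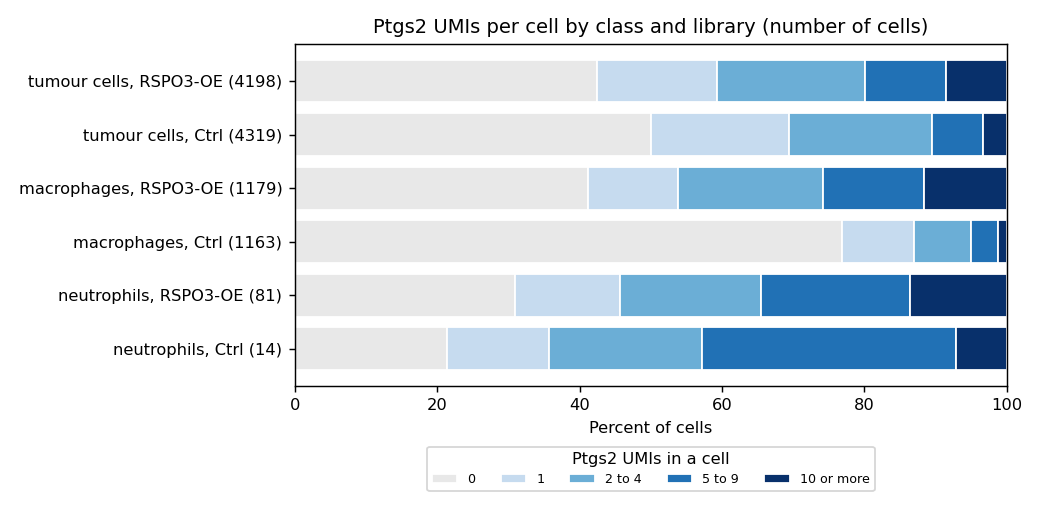
Percent of cells with 0, 1, 2 to 4, 5 to 9 and 10 or more Ptgs2 UMIs by class and library, with the number of cells in brackets. Macrophages without a Ptgs2 UMI make up 41.2% of RSPO3-OE and 76.9% of Ctrl, and the neutrophil bars rest on 81 and 14 cells.

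In tumour cells Ptgs2 was at 106.5 CPM in RSPO3-OE (105 to 108, from 12272 UMIs), while Ctrl had 69.2 CPM (67.7 to 70.8, from 7349 UMIs). The ratio was 1.54-fold (1.49 to 1.58), a log2 ratio of 0.62 whose interval reaches just under the 1.5-fold line. A Ptgs2 UMI was found in 57.5% and 49.9% of tumour cells, and in 17.3% and 11.7% once thinned. Counted without thinning, the difference lay mostly in the cells richest in Ptgs2. Median depths were 25393.5 and 21439 UMIs per tumour cell, and the part of depth in this was not tested. Cells with 10 or more UMIs were 8.48% of RSPO3-OE tumour cells and held 48.8% of the Ptgs2 UMIs, and they were 3.40% of Ctrl tumour cells and held 29.8%.

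Immediate early genes, which stress and tissue digestion also induce, were also higher in RSPO3-OE. The summed level of 8 of them (Fos, Fosb, Jun, Junb, Egr1, Ier2, Atf3 and Zfp36) was 9941 CPM in RSPO3-OE and 5232 in Ctrl tumour cells, and 7 of the 8 were at least 1.5-fold higher. In macrophages it was 6487 and 3863 CPM, with 6 of 8 higher. An alternative chosen after the data had been seen kept only cells whose share of these genes was under the median of the class. These were 32.4% of RSPO3-OE and 67.1% of Ctrl tumour cells, and 33.8% and 66.4% of macrophages. The match was incomplete, since the summed immediate early level in them was still 4467 and 3136 CPM in tumour cells and 3129 and 2416 CPM in macrophages. There Ptgs2 stood at 191.9 and 33.3 CPM in macrophages, a log2 ratio of 2.52. In tumour cells it stood at 77.6 and 57.4 CPM, a log2 ratio of 0.44, which is below the 1.5-fold line.

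Neutrophils had the highest Ptgs2 level of any class, 2499 CPM with RSPO3-OE (2250 to 2767) against 979 CPM with Ctrl (735 to 1277). The Ctrl value rests on 54 UMIs in 14 cells. The ratio of the summed UMIs was 2.55-fold (1.91 to 3.46), but as a mean over each cell's own CPM the log2 ratio was 0.34. Other markers differed between the 81 and 14 cells too. The 7 neutrophil markers summed to 113616 and 51989 CPM, all 7 higher in RSPO3-OE. Most of this was S100a8 (40371 and 20828 CPM) and S100a9 (59945 and 26429 CPM), which also set the class. Among the others, Retnlg was at 3537 and 1305 CPM. The 4 monocyte markers summed to 224 and 2085 CPM, a gap mainly in Plac8 (95.1 and 1051 CPM) and Chil3 (0 and 888 CPM). Ly6c2 was at 115 and 127 CPM. The 4 fibroblast markers summed to 88.3 and 1686 CPM, a gap mainly in Dcn (47.5 and 1631 CPM, from 7 and 90 UMIs). The part of these markers in the Ptgs2 ratio was not tested. The share of neutrophils with a Ptgs2 UMI was 69.1% in RSPO3-OE (57.9 to 78.9), while Ctrl had 78.6% (49.2 to 95.3), so the intervals overlap. The other 7 genes had at most 3 UMIs per library in neutrophils. Ptgs1 had none in 81 and 14 cells; a floor of 3 counts allows a share of cells with a UMI of up to 3.70% and 21.4%, at median depths of only 1624 and 1797 UMIs, and sets no limit on cells expressing the gene.

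In T cells Ptgs2 was low, with 59 UMIs (17.1 CPM) in RSPO3-OE and 19 UMIs (9.75 CPM) in Ctrl. In RSPO3-OE 2 of the 408 cells held 57.6% of these UMIs. In this class 31 RSPO3-OE and 17 Ctrl cells had an Hmga2 or Krt8 UMI. These held 57.6% and 89.5% of the Ptgs2 UMIs of the class. The same cells held 86.3% and 74.2% of the Ptges UMIs and 68.4% and 72.2% of the Ptgs1 UMIs. Without them Ptgs2 in T cells was at 8.52 and 1.42 CPM, from 25 and 2 UMIs. Krt8 was at 102 and 123 CPM in the T cell class, against 540 and 87.0 CPM in tumour cells. Epcam had 9 and 12 UMIs in T cells and 0 in tumour cells. Whether the Hmga2 and Krt8 UMIs in T cells came from tumour cells was not tested.

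Ptgs1, the constitutive cyclooxygenase, went opposite ways in tumour cells and macrophages. In tumour cells it was at 63.7 CPM in RSPO3-OE (62.3 to 65.2), while Ctrl had 33.6 CPM (32.5 to 34.7). The RSPO3-OE level was 1.90-fold higher (1.82 to 1.98). A Ptgs1 UMI was found in 69.3% and 45.1% of tumour cells, and after thinning in 11.9% and 7.16%. In macrophages it was at 91.3 CPM in RSPO3-OE (86.5 to 96.4), while Ctrl had 125.6 CPM (120 to 131). That log2 ratio was -0.46 (-0.56 to -0.36), short of the 1.5-fold line, and the thinned shares were 14.6% and 21.1%. The library with more Ptgs2 in macrophages was thus the library with less Ptgs1. T cells held 19 and 18 Ptgs1 UMIs, a log2 ratio of -0.75 (-1.76 to 0.27), which includes no difference.

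Among the terminal synthases, Ptges, the inducible PGE2 synthase, was nearly level in tumour cells. Its log2 ratio was 0.09 (0.05 to 0.12), and the thinned share of tumour cells with a UMI was 19.2% in RSPO3-OE and 19.1% in Ctrl. In macrophages Ptges had 61 and 47 UMIs (4.18 and 3.00 CPM), of which 60.7% and 34.0% were in cells that also carried an Hmga2 or Krt8 UMI. In T cells it was at 14.8 CPM (11.0 to 19.4) and 33.9 CPM (26.2 to 43.1), a log2 ratio of -1.20 (-1.75 to -0.65). Most of these UMIs were in the T cells with an Hmga2 or Krt8 UMI. Counted without thinning, 72.8% of RSPO3-OE tumour cells (71.5 to 74.2), and of Ctrl tumour cells 57.1% (55.6 to 58.6), had UMIs of both Ptges and a cyclooxygenase. Median depths were 25393.5 and 21439 UMIs there. In macrophages only 2.37% and 2.32% had both, although 77.5% and 71.9% had a cyclooxygenase UMI.

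Hpgds, the haematopoietic PGD2 synthase, was at 105.4 CPM in RSPO3-OE macrophages (100.2 to 111), while Ctrl macrophages had 120.3 CPM (115 to 126). Its log2 ratio of -0.19 (-0.29 to -0.09) was within 1.5-fold, and the thinned shares of macrophages were 20.02% and 20.1%. In tumour cells it was at 0.286 and 0.264 CPM, which is 0.27% and 0.22% of the macrophage level. The macrophage marker Csf1r stood at 0.17% and 0.19% of its macrophage level in the same tumour cells. For Ms4a7 these values were 0.15% and 0.13%, for Lyz2 0.22% and 0.20%, and for Ctss 0.37% and 0.20%. Whether the Hpgds UMIs in tumour cells came from macrophages was not tested. The share of tumour cells with a UMI was 0.762% and 0.625%.

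Ptgis, the prostacyclin synthase, was rare. It had 70 UMIs (0.607 CPM) in RSPO3-OE and 8 UMIs (0.075 CPM) in Ctrl tumour cells, 8.06-fold higher with an interval of 3.87 to 19.4. The RSPO3-OE UMIs were spread over 65 cells, nearly all with 1 UMI. Looser class thresholds brought the log2 ratio from 3.01 down to 0.97, and cells outside the classes and without Ptprc held 30 and 41 further UMIs. Cells with at least 3 Ptgis UMIs numbered 5 in each library. All 5 Ctrl cells and 4 of the 5 RSPO3-OE cells carried a UMI of a Y-linked gene (4 genes, summed level 0.364 and 0.188 CPM in the tumour class), and all 10 carried UMIs of the fibroblast genes Dcn and Col3a1. The tumour class also held these genes, Dcn at 2086 and 1685 CPM and Col3a1 at 1415 and 615 CPM. UMIs of the fibroblast genes Pdgfra and Lum, at 17.7 and 28.7 CPM and at 14.8 and 15.6 CPM in the tumour class, were each found in 4 of the 5 RSPO3-OE and in 5 of the 5 Ctrl cells. Hmga2 was found in 1 of the 5 RSPO3-OE and in 0 of the 5 Ctrl cells.

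Among the 4 classes the PGE2 receptor Ptger4 was highest in macrophages. Its levels there lay within counting error of each other, 32.8 CPM (29.9 to 35.9) and 33.1 CPM (30.3 to 36.1). Its log2 ratio was -0.01 (-0.20 to 0.17), and 7.36% and 7.11% of thinned macrophages had a UMI. T cells carried it at 7.82 CPM (5.15 to 11.4) and 6.67 CPM (3.55 to 11.4). In tumour cells it had 18 and 6 UMIs, 0.48% and 0.17% of the macrophage level, close to the 0.15% to 0.37% at which 4 macrophage markers appeared in RSPO3-OE tumour cells.

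Ptger2, the other PGE2 receptor that raises cAMP, was highest in T cells, at 12.2 CPM in RSPO3-OE (8.77 to 16.4, from 42 UMIs), while Ctrl had 7.18 CPM (3.93 to 12.1, from 14 UMIs). RSPO3-OE over Ctrl was 1.69-fold with an interval of 0.91 to 3.36, which includes no difference. Macrophages held it at 4.59 CPM (3.56 to 5.84) and 3.57 CPM (2.70 to 4.63). Tumour cells had 2 UMIs in RSPO3-OE and none in 4319 Ctrl cells, for which a floor of 3 counts allows a share of cells with a UMI of up to 0.0695%. In RSPO3-OE T cells with a Cd4 but no Cd8 UMI, Ptger2 was at 43.2 CPM (21.6 to 77.4, 11 UMIs in 32 cells) against 9.69 CPM (6.58 to 13.8) in the others. In Ctrl only 5 T cells met that rule.

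Ptgir, the prostacyclin receptor, had 88 UMIs (0.763 CPM) in RSPO3-OE and 29 UMIs (0.273 CPM) in Ctrl tumour cells, 2.79-fold higher (1.82 to 4.41). Macrophages had 11 and 4 UMIs, with an interval on the log2 ratio of -0.19 to 3.67. Of all Ptgir UMIs in kept cells, 8.70% in RSPO3-OE (10 of 115) and 36.7% in Ctrl (22 of 60) lay in cells without Ptprc that met no class rule.

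Neighbouring steps of the pathway were read from 6 lists of genes. Over all genes measured, 13.3% were at least 1.5-fold higher in tumour cells and 10.9% in macrophages. Of the phospholipases that release arachidonate, 4 of 6 were measured in tumour cells and 2 were higher: Pla2g4c at 2.21 and 1.04 CPM and Pla2g5 at 1.54 and 0.886 CPM. The cytosolic Pla2g4a was close to level, with log2 ratios of 0.10 in tumour cells and 0.08 in macrophages. Of the 7 other prostanoid synthases, 6 were measured in tumour cells and 1, the thromboxane synthase Tbxas1, was higher at 0.338 and 0.188 CPM. In macrophages 6 were measured and none passed 1.5-fold: Tbxas1 was at 89.6 and 93.2 CPM there, and Ptges3 at 130 and 134 CPM. The Tbxas1 values of tumour cells, from 39 and 20 UMIs, are small beside these. Macrophage markers appeared in RSPO3-OE tumour cells at 0.15% to 0.37% of their macrophage level. The part of such background in the Tbxas1 values of tumour cells was not tested.

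Transport and breakdown genes were lower where they passed the line. In macrophages 2 of 4 measured genes were at least 1.5-fold lower, against 8.64% of all genes measured, and none higher. Ptgr1, a prostaglandin reductase, was at 10.1 and 15.7 CPM. Hpgd, the dehydrogenase that inactivates PGE2, was at 1.65 and 2.55 CPM from 24 and 40 UMIs. The log2 ratio of Hpgd was -0.63 with an interval of -1.43 to 0.13, which includes no difference. Abcc4, of the same list, leaned the other way in macrophages, at 6.31 and 4.40 CPM. Its log2 ratio of 0.52 (0.05 to 0.99) was within 1.5-fold. In tumour cells none of 4 passed, and the transporter Slco2a1 had a log2 ratio of 0.46. Of 6 other prostanoid receptors, 3 were measured in tumour cells and none passed, with Ptger1 at 1.22 and 0.839 CPM. In the leukotriene branch 4 of 6 measured genes were higher in tumour cells, against 13.3% of all genes measured. All 4 were under 1 CPM there. Among them were the receptors Ltb4r1 (0.382 and 0.075 CPM, from 44 and 8 UMIs) and Cysltr2 (0.347 and 0.113 CPM, from 40 and 12 UMIs). In macrophages Ltb4r1 was at 20.2 and 19.1 CPM and Cysltr2 at 5.35 and 2.80 CPM. The part of macrophage background in the tumour cell values was not tested. Lta4h, the gene of this list with the most UMIs in tumour cells, was at 47.4 and 55.6 CPM. In macrophages 2 of 7 measured genes of this branch were higher, against 10.9% of all genes, among them Alox5, the 5-lipoxygenase, at 2.26 and 1.21 CPM.

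Genes that cAMP is known to induce were higher across the classes: 8 of 10 measured in tumour cells, 9 of 10 in macrophages, 6 of 7 in neutrophils and 7 of 10 in T cells, and none was lower. Over all genes measured, the shares higher were 13.3%, 10.9%, 34.9% and 10.4% in the same order. The shares lower were 16.9%, 8.64%, 32.9% and 17.1%. The median log2 ratio was 1.19 in tumour cells and 1.58 in macrophages, against -0.10 and 0.03 over all genes measured. The nuclear receptor Nr4a3 was at 20.1 and 1.32 CPM in tumour cells and at 106.8 and 7.84 CPM in macrophages. Nr4a2 was at 164 and 34.6 CPM in tumour cells and 188 and 28.5 CPM in macrophages. In T cells Nr4a3 was at 148 and 24.6 CPM, while the phosphatase Dusp1 was at 163 and 223 CPM. The phosphodiesterase Pde4d stayed within 1.5-fold in tumour cells and in macrophages, with log2 ratios of 0.15 and 0.12. Many of these genes also answer to stress and growth factors, and in tumour cells and macrophages the immediate early genes given above were higher as well; the part of that in their levels was not tested. In T cells 1 of the 8 immediate early genes was at least 1.5-fold higher and 1 lower, with summed levels of 2725 and 2338 CPM.

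Within a library the level of Ptgs2 followed the state of the tumour cells. Cells with at least 5 UMIs of Mki67 and Top2a, genes of dividing cells, had 62.2 CPM (60.4 to 64.1) in RSPO3-OE, against 175 CPM (171 to 179) in the rest. In Ctrl the same comparison gave 57.0 CPM (55.2 to 58.8) and 90.7 CPM (87.7 to 93.7). The gap between libraries was thus narrow among dividing cells and wide among the others. Cells rich in Mgp, a matrix protein gene, with at least 10 UMIs, had 179 CPM (173 to 185) against 92.1 CPM in RSPO3-OE and 97.7 CPM (87.3 to 109) against 68.3 CPM in Ctrl. They were 849 of 4198 tumour cells in RSPO3-OE and 169 of 4319 in Ctrl. Ptges was lower in Mgp-rich cells in both libraries, at 77.1 against 127 CPM and at 70.3 against 113 CPM.

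RSPO3-OE tumour cells with an Rspo3 UMI had less Ptgs2 than those without. The level was 76.0 CPM (72.9 to 79.3) in the 931 cells with Rspo3 and 117 CPM (114 to 119) in the 3267 others, and the thinned shares were 11.9% and 18.9%. Both values were above the Ctrl level of 69.2 CPM. Ptges was at 130 CPM with Rspo3 and 115 CPM without. Cells with an Rspo3 UMI were also deeper, with a median of 28218 against 24481 UMIs.

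**Figure D4:**
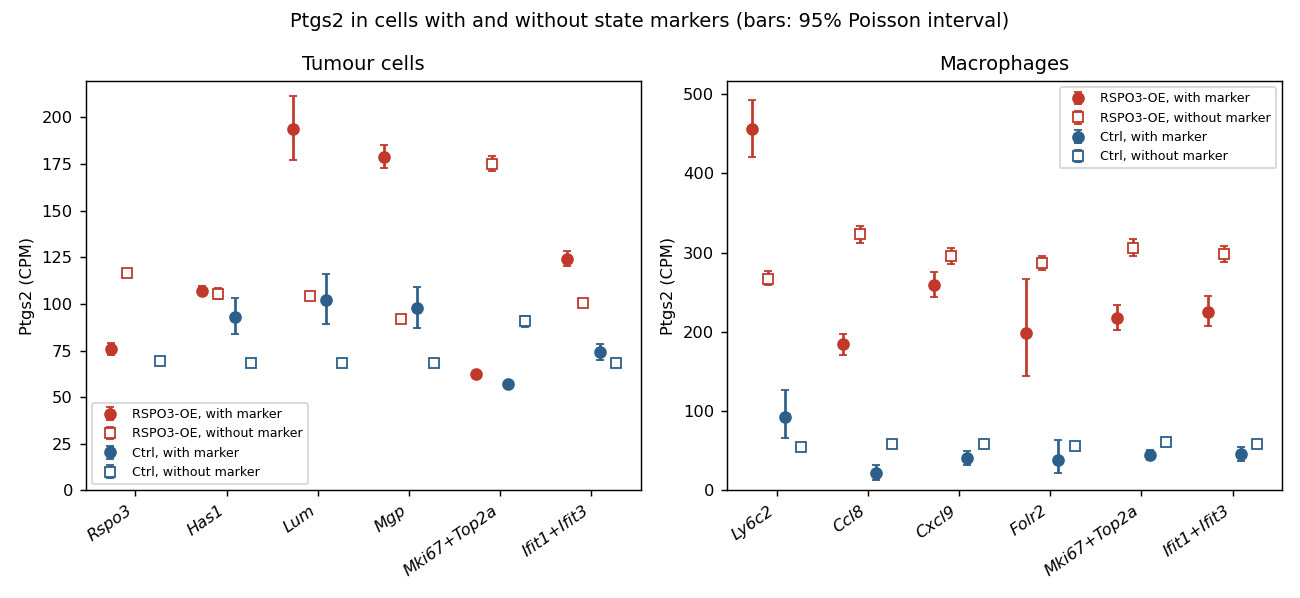
Ptgs2 level in CPM in tumour cells and macrophages with (filled circles) and without (open squares) enough UMIs of each state marker, RSPO3-OE in red and Ctrl in blue, with 95% Poisson intervals; Ctrl has no tumour cells with Rspo3. Ptgs2 is lower in dividing tumour cells (62.2 against 175 CPM in RSPO3-OE) and higher in macrophages with Ly6c2 (455.7 against 267 CPM).

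In macrophages the 2 cyclooxygenases ran opposite ways along the marker Ly6c2. Macrophages with at least 3 UMIs of Ly6c2, a monocyte gene, had Ptgs2 at 455.7 CPM (421 to 493) against 267 CPM in the rest of RSPO3-OE, and at 92.7 CPM (65.6 to 127) against 55.1 CPM in Ctrl. In the same cells Ptgs1 was lower, at 51.3 against 95.6 CPM in RSPO3-OE and 36.6 against 128 CPM in Ctrl. Hpgds was lower too, at 53.4 against 111 CPM and 43.9 against 122 CPM. Macrophages with at least 10 UMIs of the chemokine gene Ccl8 showed the reverse for Ptgs2 and Hpgds. Ptgs2 was at 184 against 323 CPM in RSPO3-OE and 21.5 against 58.5 CPM in Ctrl. Hpgds was at 145 against 90.8 CPM and 161 against 117 CPM. Ly6c2 macrophages were 118 of 1179 in RSPO3-OE and 44 of 1163 in Ctrl. Within each of these states Ptgs2 remained higher in RSPO3-OE.

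At a fixed depth of 2000 UMIs some genes were found more often in RSPO3-OE cells with a UMI of another member than in those without. In Ctrl the intervals of these pairs overlapped. The difference between the libraries was not tested. In RSPO3-OE tumour cells Ptgs1 was found in 15.7% (13.1 to 18.5) of cells with a Ptgs2 UMI and in 11.1% (10.1 to 12.2) of those without. In Ctrl the shares were 7.75% (5.57 to 10.4) and 7.08% (6.29 to 7.94). In RSPO3-OE macrophages Hpgds was found in 28.7% (22.0 to 36.1) of cells with Ptgs1 and in 18.5% (16.2 to 21.1) of cells without, whereas in Ctrl the shares were 21.0% (16.04 to 26.7) and 19.9% (17.3 to 22.6). Other pairs leaned the other way in RSPO3-OE, with overlapping intervals. Ptges was found in 16.6% of tumour cells with Ptgs2 and in 19.8% of those without. Hpgds was found in 16.9% of macrophages with Ptgs2 and in 21.4% of those without.

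Over the 8 levels (4 classes in 2 libraries) the genes whose pattern was most like Ptgs2 were Ier3, Nfkbiz, Dusp1, Plaur and Ier5, with Pearson's r of log2(CPM + 1) from 0.960 to 0.990. For Ptges they were Map1b, Khdrbs3, Lysmd2, Hoxc10 and Cuedc1. For Hpgds they were Slc8a1, Gas6, Gdpd3, Mef2c and Cd302, for Ptgs1 Rab3il1, Gamt, Bst2, Olfml3 and Zfp385a, and for Ptger4 Atp8a1, Nckap1l, Fuom, Smim24 and Haao. For Ptger2 they were Dok2, Lrmp, AW112010, Gpr183 and Mdfic. The points share libraries and depth, so these values only describe the pattern. The nearest genes to Ptgis and Ptgir reached r of at most 0.766 and 0.900 on few UMIs.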

How the data were processed

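Members, lists and alternatives were chosen with earlier results of these data known. The deposited files are raw UMI counts, which the authors produced using Cell Ranger (3.0.1, per the labels; the header of the matrix names 3.1.0) against mm10, per the submitters' processing notes. Barcodes under 200 genes or over 20% mitochondrial UMIs (150 in RSPO3-OE, 311 in Ctrl) were left out. So were Scrublet doublets (173 and 94; scanpy 1.11.5, expected rate 0.05). CPM is the sum of a gene's UMIs over the cells of 1 class in 1 library, scaled by all UMIs of those cells. Thinning drew 2000 UMIs per cell without replacement. Genes needed 10 UMIs over both libraries, and 3 counts served as the floor for 0. Called means at least 1.5-fold. Values are given for all 8 members. Of the list genes, values come from those at either end of the ratios, up to 2 at each end per list and class, with at least 50 UMIs. Neighbours in pattern needed 200 UMIs. Intervals used scipy 1.17.1, with numpy 2.4.6 and Python 3.11.15, and the counting code was tested on simulated data. Promoter windows come from RefSeq tables on GRCm38.p6, the build of mm10.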

Additional observations from a re-analysis of the deposited data

Results flagged for a closer look

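Ptgs1 had a log2 ratio of 0.93 in tumour cells and -0.46 in macrophages, so the classes moved in opposite directions. The difference was not tested, because each group has 1 library. Ptges had a log2 ratio of 0.088 in tumour cells and -1.20 in T cells, also not tested. In T cells 86.3% and 74.2% of its UMIs lay in cells with an Hmga2 or Krt8 UMI.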

How the results depend on the processing

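No paired analysis was possible because each group has 1 library, and no library could be left out. Neutrophil values rest on 81 and 14 cells. The log2 ratio of Ptgs2 in tumour cells was 0.62. It was 0.70 with looser and 0.48 with stricter class thresholds, 0.76 after thinning, 0.72 both as a mean of the cells' own CPM and with median-of-ratios scaling, and 0.44 in cells with few immediate early UMIs; the stricter thresholds and the last fall below 1.5-fold, and the cause was not tested. In macrophages the ratio of Ptgs2 ranged from 2.17 to 2.52. The count of genes higher in tumour cells fell from 5 to 3 after thinning and at 2-fold, where 8.72% of all genes were higher. In macrophages it was 1 at 50 UMIs or more (8.35% of all genes), because Ptgir has too few. In neutrophils it was 0 as a mean of the cells' own CPM. In T cells the count of higher genes was 0 after thinning and at 2-fold and 1 without cells that carry Hmga2 or Krt8. The count of lower genes there was 0 with doublets kept and after thinning, 1 with cells of several classes kept, with looser thresholds, as a mean of own CPM, at 50 UMIs and at 2-fold, and 4 with no minimum of UMIs. Among ratios past 1.5-fold the sign turned in T cells for Ptgs1, to 0.32 with doublets kept, and for Ptgs2, to -0.014 after thinning. Among ratios within 1.5-fold it turned for Ptges in macrophages in 4 of 11 alternatives (lowest -0.31), for Hpgds in tumour cells in 2 of 10 (lowest -1.54, after thinning) and in macrophages in 1 of 11 (0.03, after thinning), and for Ptger4 in T cells in 3 of 10 (lowest -0.44) and in macrophages in 4 of 11 (highest 0.05). The settings on few immediate early UMIs and on Hmga2 or Krt8 were chosen after seeing the data.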

Other observations

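Cells outside the 4 classes also held prostaglandin transcripts. Cells with Ptprc and at least 5 UMIs of the monocyte genes Ly6c2, Plac8 and Chil3, but without Hmga2 and Krt8, numbered 226 in RSPO3-OE and 90 in Ctrl. Ptgs2 stood at 318 and 188 CPM there, Ptger4 at 31.5 and 28.3 CPM and Ptgs1 at 13.0 and 7.39 CPM. A further 67 and 56 cells with Ptprc met no other rule. Ptgs2 stood at 716 and 105 CPM in them, from 362 UMIs in 30 cells and 53 UMIs in 18 cells, and 1 RSPO3-OE cell held 70 UMIs. None of the 9 and 3 of these cells with a Ccr7 UMI had a Ptgs2 UMI. Ptger4 stood at 57.4 CPM (38.4 to 82.4) and 41.6 CPM (25.7 to 63.6) in the 67 and 56 cells, from 29 and 21 UMIs. In RSPO3-OE 19 cells had at least 5 UMIs of Cpa3, Ms4a2 and Mcpt8, genes of mast cells and basophils, and these cells had Hpgds at 161 CPM from 13 UMIs and Ptgs1 at 74.4 CPM from 6 UMIs. Ctrl had 1 such cell.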
